A study of Sus scrofa with 45 samples.

Results

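INSIG1 and SREBF1, a pair of genes through which cells sense their sterol supply, were read by 5 of the 43603 probes of a porcine expression array in pig blood. The probes were found by name: each non-control probe whose gene name, RefSeq record or description in the array files names either gene was taken, whatever its values. INSIG1 had 3 probes and SREBF1 had 2. The working title of the set also mentions uptake of LDL, which neither gene carries out, so the set is called by its genes.

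INSIG1 encodes a membrane protein of the endoplasmic reticulum. When sterols are plentiful it holds back the escort protein SCAP together with the SREBP precursors, which then are not cut and released to the nucleus. SREBF1 encodes SREBP-1, the family member best known for switching on fatty acid synthesis, and its transcription is raised by the oxysterol receptor LXR. INSIG1 is itself a target of nuclear SREBPs, so its transcript usually falls in sterol-loaded cells.

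Male miniature pigs received a control diet, a diet high in fat and cholesterol (HFCD), or a diet high in fat, cholesterol and sucrose (HFCSD), and the study asked how blood transcripts differed between the diets as hyperlipidemia was maintained. Whole blood RNA was taken after 10, 19 and 27 weeks of feeding with a PAXgene kit, and white blood cell RNA after 27 weeks with a LeukoLock kit. Each RNA was labelled with Cy3 and read on its own array. Weeks count time on the diet, not age, and the labels do not say which samples of different weeks or types came from the same pig. The 12 groups were the 3 diets in whole blood at each of 10, 19 and 27 weeks and the 3 diets in white blood cells at 27 weeks. There were 4 arrays in 9 of these groups and 3 arrays in HFCSD whole blood at 19 weeks, HFCD whole blood at 27 weeks and HFCSD whole blood at 27 weeks, giving 33 whole blood and 12 white blood cell arrays. Whole blood RNA is a mixture of all blood cells, so fewer cells of a type and less RNA per cell cannot be told apart.

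A level is the log2 of a probe's background-subtracted intensity after quantile normalization over the 45 arrays, and levels were tested only within a probe. A spot counted as seen where the scanner software marked it as well above background. That held for 35.4% to 53.3% of the spots of an array. The group means ran from 39.4% (SD 0.473) in HFCSD whole blood at 27 weeks to 47.8% (SD 4.51) in HFCD whole blood at 10 weeks, with 46.2% (SD 5.14) in control whole blood at 27 weeks. The number of arrays limits the precision of each value. How many probes over the array had groups that did not overlap was not counted, so such separations are given as description only.

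Markers of blood cells were checked against the labelled sample types. All 3 probes of the leukocyte marker PTPRC, all 3 neutrophil probes (brightest MMP9) and both NK cell probes (brightest GNLY) were well above background on each of the 45 arrays. T cell probes (brightest CD3D) were so on every whole blood array for 7 of 12 and on every white blood cell array for 10 of 12, and monocyte probes (brightest LYZ) for 5 and 8 of 10. All 6 platelet probes were well above background on every array of both types. The summed log2 platelet level, led by PF4, was 15.06 (SD 0.15) in control whole blood and 14.85 (SD 2.33) in control white blood cells at 27 weeks, so the white blood cell samples still carried platelet RNA. The array had 1 usable red cell probe, HBA, which was well above background on 1 of 45 arrays, so red cell RNA could not be judged. No hepatocyte probe of 6 was seen on every array of either type, and 12 arrays showed any of them. Of 6 adipocyte probes 1 was seen on every array of both types, and LEP was the brightest.

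The probes are named by the position of their first base in the record they were designed on. The record of INSIG1 510 is not that of INSIG1 1197 and 1678, so its position cannot be set beside theirs. The SREBF1 probe at 297 was well above background on 45 of 45 arrays and the SREBF1 probe at 3590 on 44, the exception being replicate 4 of control whole blood at 27 weeks. The INSIG1 probe at 1197 was well above background on 45 arrays and the INSIG1 probe at 1678 on 43. The INSIG1 probe at 510 was seen on 13 arrays, of which 12 were all the white blood cell arrays and 1 was control whole blood at 27 weeks. In 8 of the 9 whole blood groups no array saw it, so its whole blood levels there are background. Each probe had 1 spot per array and 60 bases. The SREBF1 probes were rich in G and C, with 40 such bases in the probe at 297 and 49 in the probe at 3590. Only 5 of the 43603 probes had at least the share of the former, and 1, the probe itself, that of the latter. The INSIG1 probes at 510, 1197 and 1678 had 23, 27 and 23 such bases. The sequence of the SREBF1 probe at 297 is shown since it alone carried a diet call.
SREBF1 probe at 297: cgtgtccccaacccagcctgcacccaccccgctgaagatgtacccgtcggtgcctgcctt

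Diet was compared with control within each sample type and week. For SREBF1, the gene of the transcription factor, the clearest separation was in HFCSD whole blood at 27 weeks. The probe at 297 read 9.39, 9.43, 9.37 and 10.76 in the 4 controls, a mean of 9.74 (SD 0.68), and 12.82, 12.61 and 12.36 in the 3 HFCSD arrays, a mean of 12.60 (SD 0.23). All 3 HFCSD arrays lay above all 4 controls, and control replicate 4 stood above the other controls. The log2 difference was 2.86 (SE 0.53), or 7.24-fold, with an adjusted p of 0.0195 by limma. The probe at 3590 read 8.84, 9.97, 8.03 and 4.15 in the controls and 11.29, 12.35 and 11.58 in HFCSD. The groups did not overlap here either, but the controls were widely spread. The log2 difference was 4.00 (SE 1.26), and its adjusted p of 0.0644 missed the threshold of 0.05. It was called with normexp and with a block for replicate number, with limma adjusted p down to 0.0283. Control replicate 4, at 4.15, was not well above background here. With single arrays left out the difference ran from 2.8 to 4.73, uncalled.

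In that comparison 1 of the 4 member probes tested was called, where 10.6% of the 17133 probes tested over the array were called (1161 higher and 663 lower). A share of 1 in 4 probes cannot be set apart from that background. The call at 297 also rested on single arrays. Without control replicate 1, 2 or 3 the difference was 2.74, 2.75 and 2.73 with limma adjusted p of 0.0638, 0.0535 and 0.06. Without HFCSD replicate 1 or 2 it was 2.74 and 2.85 with adjusted p of 0.0712 and 0.0609. Leaving out any of these 5 arrays also cut the calls over the array to between 95 and 217, while leaving out control replicate 4 raised them to 2833. The size of the difference moved little and its sign not at all, from 2.73 to 3.20 over the 10 whole blood arrays of that week left out in turn.

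The mean share of spots above background was also lower in HFCSD than in controls that week, as given above. Control replicate 4, at 38.9%, lay among the HFCSD arrays, at 39.6%, 38.8% and 39.7%, and read 10.76 at 297. With that share as a covariate the difference at 297 was 1.65 with an adjusted p of 0.191, that at 3590 was 6.59 with an adjusted p of 0.106, and limma called 0 of 17133 probes over the array (2839 at an unadjusted p under 0.05). Within whole blood groups, the level at 297 and the share of spots above background had a correlation of -0.46 over 33 arrays, which share their groups' centring. Whether the share takes part in the diet difference was not tested beyond this fit. All 7 arrays were scanned on 1 day. Slide 11 held 2 HFCSD arrays and 1 control, with a difference of 3.22 at 297, and slide 12 held 1 of each, with a difference of 3.18.

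The 2.86 stood beside control levels that were low at 27 weeks. Control whole blood at 297 read 11.11, 12.22, 11.03 and 11.11 at 10 weeks and 11.33, 12.51, 11.89 and 12.61 at 19 weeks. Both earlier control groups lay wholly above the controls of 27 weeks. The 3 HFCSD arrays of 27 weeks overlapped the controls of 19 weeks, whose mean was 12.08 (SD 0.60). They lay wholly above the controls of 10 weeks and above the HFCSD arrays of 10 and 19 weeks. Between 10 and 27 weeks the log2 difference was -1.63 (SE 0.70) in controls, adjusted p 0.0973, and 1.23 (SE 0.76) in HFCSD, adjusted p 0.304. Neither passed the threshold by limma, and the difference of the HFCSD effect between these weeks was 2.86 (SE 1.04), adjusted p 0.287. Without HFCD whole blood at 19 weeks replicate 1, which entered the estimate of spread, the control difference of -1.63 had an adjusted p of 0.0218.

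Under HFCD at 27 weeks, whole blood read 9.73, 12.14 and 11.46 at 297, and the lowest lay among the controls. Limma gave a log2 difference of 1.37 (SE 0.53) and an adjusted p of 0.893 in a comparison where 0 of the 4 member probes tested were called, against 0.0165% of 18186 probes (1009 at an unadjusted p under 0.05). The probe at 3590 read 10.08, 10.94 and 7.01 there, with a log2 difference of 1.60 (SE 1.26). At 19 weeks, replicate 1 of HFCD whole blood was far below the others at both SREBF1 probes, at 8.15 beside 12.29, 12.57 and 12.10 at 297 and at 4.48 beside 12.99, 13.10 and 12.08 at 3590. Diet differences at 19 weeks were -0.80 and -1.20 under HFCD and -1.29 and -1.19 under HFCSD, at 297 and 3590. Of the controls of that week 3 were scanned on another day than all diet arrays, and with scan day as a block, which leaves 1 control for the diets to be set against, the differences were -0.05 and -0.53 at 297 and 2.17 and 2.18 at 3590, under HFCD and HFCSD. At 10 weeks they lay between -0.49 and 0.03 at both probes under both diets.

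At 297, HFCD at 10 weeks read 10.17, 12.42, 11.52 and 9.38 and HFCSD 11.72, 11.69, 11.38 and 10.66, and each overlapped the controls. At 19 weeks HFCSD read 11.44, 10.43 and 10.52, of which only the first reached into the control range. At 3590 the arrays of 10 weeks lay at 10.44 to 12.41 under HFCD and 11.36 to 12.27 under HFCSD. At 19 weeks they lay at 8.49 to 13.34 in controls and 8.18 to 12.03 under HFCSD, so that the diets overlapped at both weeks.

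INSIG1, the sterol-dependent brake on SREBP processing, had no diet call. In HFCSD whole blood at 27 weeks the probe at 1197 read 10.27, 10.09 and 9.5, beside 8.40, 7.82, 7.37 and 9.97 in controls. Control replicate 4 lay within the HFCSD range, as it was also the control nearest to HFCSD at the SREBF1 probe at 297. The log2 difference was 1.56 (SE 0.70), adjusted p 0.15, and -0.0039 with the share of spots above background as a covariate. The probe at 1678 read 5.50, 6.43 and 6.13 in HFCSD and 7.01, 6.65, 7.39 and 5.86 in controls. Its difference had the other sign, -0.71 (SE 0.39), adjusted p 0.226, and its groups overlapped. The 2 bright INSIG1 probes thus gave no common direction in that comparison.

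Over the other diet comparisons, the log2 differences of INSIG1 ran from -1.0 to 0.79 at 1197 and from -1.09 to 0.01 at 1678, all uncalled. Limma called 0 of 4 member probes tested in each of the remaining whole blood diet comparisons. At 1197 the controls lay at 8.82 to 10.54 at 10 weeks and 8.50 to 11.41 at 19 weeks, HFCD at 6.90 to 11.01 at 19 weeks and 7.63 to 10.47 at 27 weeks, and HFCSD at 8.34 to 9.24 at 19 weeks. Diet and control overlapped each time. At 1678 the controls lay at 6.54 to 7.82 at 10 weeks and 6.11 to 6.67 at 19 weeks, and HFCD at 6.75 to 7.55, 4.90 to 6.48 and 5.64 to 6.66 at 10, 19 and 27 weeks. These overlapped their controls too. The background at 10 weeks was 0.0281% under HFCD and 0.0123% under HFCSD, and at 19 weeks 0.0181% and 0.0175%, with 1776, 280, 2072 and 2041 probes at an unadjusted p under 0.05. In white blood cells all 5 probes were tested and limma called 0 under either diet. Their differences ran from -0.21 to -0.04 under HFCD and from -0.58 to -0.02 under HFCSD, each within 2 SE of 0. The background there was 0.0276% for HFCD and 0.0366% for HFCSD, with 857 and 2157 probes at an unadjusted p under 0.05. Over the 8 diet comparisons 1 of 34 tested pairs of probe and comparison was called.

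Added sucrose was asked by comparing HFCSD with HFCD. At 27 weeks in whole blood the 3 HFCSD arrays lay above the 3 HFCD arrays at both SREBF1 probes. Both probes were read on the same arrays, and how many probes over the array separated so was not counted. Limma gave differences of 1.49 (SE 0.57) at 297, adjusted p 0.393, and 2.40 (SE 1.35) at 3590, adjusted p 0.43. With the share covariate they were 0.30 and 4.97. Limma called 0 of the 4 member probes tested there, beside 0.0111% over the array (2259 at an unadjusted p under 0.05). It called 0 of 4 in whole blood at 10 weeks, 0 of 3 at 19 weeks and 0 of 5 in white blood cells, where the background was 0% each time and 886, 253 and 407 probes had an unadjusted p under 0.05. INSIG1 at 1197 read 10.24, 10.48, 9.17 and 9.12 under HFCSD at 10 weeks and 8.40, 9.47, 9.34 and 7.48 under HFCD, which overlapped, with a difference of 1.08 (SE 0.50).

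Most calls of the set lay between sample types. Kit and scan day went with sample type, so the cells, the kit and the scan cannot be told apart. The arrays were treated as independent, although samples of both types may come from the same pig. INSIG1 at 1197 read 6.58, 5.50, 5.81 and 5.84 in control white blood cells, 5.89, 5.43, 6.41 and 5.70 under HFCD and 5.36, 5.47, 6.15 and 6.48 under HFCSD. All 12 arrays lay below all 10 whole blood arrays of 27 weeks. White blood cells minus whole blood was -2.46 (SE 0.53) in controls, -3.33 (SE 0.57) under HFCD and -4.09 (SE 0.57) under HFCSD, with adjusted p of 9.1e-04, 1.3e-04 and 1.1e-05 by limma.

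The other bright INSIG1 probe went the opposite way. The probe at 1678 read 9.31, 8.13, 8.49 and 7.94 in control white blood cells, 8.40, 8.55, 8.50 and 7.58 under HFCD and 7.06, 7.74, 8.49 and 8.29 under HFCSD. Each white blood cell group lay above whole blood of its diet, by 1.74 (SE 0.38), 2.11 (SE 0.41) and 1.87 (SE 0.42), with adjusted p of 0.00113, 4.5e-04 and 8.6e-04. With the share covariate the last was 1.30, adjusted p 0.0775. The probe at 510 had white blood cell means of 4.59 (SD 0.33), 4.51 (SD 0.37) and 4.40 (SD 0.22), and limma called it higher in each diet. It was tested only because every white blood cell array saw it, so these calls are not taken as support for a direction. The whole blood side of these calls is background on all but 1 array, so the size of the difference is not given. In controls that array, at 4.14, lay above the lowest white blood cell array, at 4.12. With normexp the call was lost in controls and under HFCSD. The faintest signal that counted as seen on the whole blood arrays was 3.48 under HFCD and 4.29 under HFCSD. The white blood cell means of 4.51 and 4.40 stood above it. Replicate 3 of HFCSD white blood cells, at 4.21, lay below it. Among cell markers, T cell probes were called higher in white blood cells in control, HFCD and HFCSD. This held for 8 of 10, 6 of 10 and 9 of 11 tested, with medians of 0.97, 1.16 and 1.21. Over the array 4641 of 19020, 4955 of 19413 and 7312 of 19686 probes were called higher. Monocyte probes were called higher for 3 of 9, 1 of 8 and 2 of 8, with medians of 0.95, 0.75 and 0.81, where the medians over the array were 0.17, 0.19 and 0.42. Limma called 0 of 3 neutrophil, 0 of 6 platelet and 0 of 3 PTPRC probes in any diet, with 9963, 10620 and 12501 probes over the array at an unadjusted p under 0.05. NK cell probes were called higher for 1 of 2 in each diet, with medians of 0.45, 0.52 and 0.92. The 1 adipocyte probe tested was lower, at -0.88, -0.84 and -0.7, and was called in controls only. Probes annotated to 1 gene thus differed in sign between the sample types, and which transcripts or cells each probe reads was not tested.

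For SREBF1 the calls between sample types were not the same at both probes or in every diet. Whether the difference itself varied by diet is tested below as an interaction. At 297 white blood cells read 9.46, 9.34, 8.05 and 9.92 in controls, 9.81, 7.20, 9.96 and 9.58 under HFCD and 8.22, 9.83, 9.66 and 8.97 under HFCSD, with means of 9.19 (SD 0.80), 9.14 (SD 1.30) and 9.17 (SD 0.74). The 3 groups overlapped throughout. White blood cells minus whole blood was -0.55 (adjusted p 0.468), -1.98 (adjusted p 0.0164) and -3.43 (adjusted p 2.0e-04). Under HFCSD the types did not overlap, and under HFCD they did. The call under HFCD was lost without HFCD whole blood replicate 2 (-1.46, adjusted p 0.115) or 3 (-1.80, adjusted p 0.0619) or HFCD white blood cells replicate 2 (-1.33, adjusted p 0.0624).

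At 3590 white blood cells read 9.84 to 10.78 in controls, 9.09 to 11.10 under HFCD and 8.93 to 10.82 under HFCSD, and the diets overlapped. They had means of 10.42 (SD 0.40), 10.38 (SD 0.90) and 10.28 (SD 0.90), against 7.75 (SD 2.53), 9.34 (SD 2.07) and 11.74 (SD 0.55) in whole blood. The difference was 2.67 (SE 0.94) in controls, adjusted p 0.0256, 1.03 (SE 1.01) under HFCD and -1.47 (SE 1.01) under HFCSD, the last 2 uncalled. The call in controls was lost without control whole blood replicate 4 (1.47, adjusted p 0.119), control white blood cells replicate 2 (2.62, adjusted p 0.053) or replicate 4 (2.55, adjusted p 0.0518). In all, 12 of 15 tested pairs were called between types, as 4, 4 and 4 of 5 probes in control, HFCD and HFCSD. Of these calls 3 were of INSIG1 510, which passed the filter only through the white blood cell groups. Those 3 cannot be set beside the share over the array. Over the array 45.3%, 47.5% and 58.8% of probes were called in these comparisons.

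The difference of a diet effect between sample types was tested as an interaction. For HFCSD it was -2.88 (SE 0.88) at the SREBF1 probe at 297, adjusted p 0.089, and -4.14 (SE 1.38) at 3590, adjusted p 0.116. Limma called 0 of 5 members, beside 1.38% over the array (3921 at an unadjusted p under 0.05). Without control whole blood at 27 weeks replicate 4 the former was -3.22, adjusted p 0.0448, and without HFCD white blood cells replicate 2 it was -2.88, adjusted p 0.0415. For HFCD limma called 0 of 5, beside 0% over the array (267 at an unadjusted p under 0.05), and the values of the probes other than INSIG1 510 ran from -1.64 to 0.37. With only the groups compared, limma called the HFCSD difference at 297 (-2.88, adjusted p 0.0282). In the reported fit, a diet effect that differs between whole blood and white blood cells was not shown for either gene.

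Time on the diet was asked in whole blood, as 19 and 27 weeks against 10 weeks in each diet. These comparisons share the arrays of 10 weeks. Week goes with the age of the pigs and with scan day, so a change in controls is not an effect of a test diet. The arrays were treated as independent, although the pigs were bled repeatedly. SREBF1 at 3590 read 12.18, 12.45, 10.68 and 11.93 in controls at 10 weeks and, as above, 8.84, 9.97, 8.03 and 4.15 at 27 weeks. All 4 later arrays lay below all 4 earlier ones. The difference was -4.06 (SE 1.42) with a limma adjusted p of 0.0418. It was lost without control replicate 1, 2, 3 or 4 of 10 weeks (-3.94, -3.85, -4.44 and -4.02, adjusted p 0.0701, 0.098, 0.0527 and 0.0821) and without replicate 1, 3 or 4 of 27 weeks (-4.42, -4.16 and -2.86, adjusted p 0.0562, 0.0671 and 0.161).

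INSIG1 at 1678 read 6.70, 6.80, 6.83 and 7.38 under HFCSD at 10 weeks and 6.07, 6.15 and 3.70 at 19 weeks. The 3 later arrays lay below the 4 earlier ones, and replicate 3, the lowest, was not well above background. The difference was -1.62 (SE 0.46) with a limma adjusted p of 0.0325. Without HFCSD replicate 3 of 19 weeks it was -0.82, adjusted p 0.418, and without HFCSD replicate 2, 3 or 4 of 10 weeks it was -1.66, -1.65 and -1.47, adjusted p 0.0661, 0.0517 and 0.0835. The difference at this probe was below 0 in all 6 comparisons over time, from -1.62 to -0.41. These share the arrays of 10 weeks in pairs, and how many probes over the array kept their sign in all of them was not counted. Under HFCD at 19 weeks the difference at this probe was -1.24, limma adjusted p 0.0705. The adjusted p was 0.0253 without HFCSD whole blood at 19 weeks replicate 3.

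Of the 4 member probes tested in each comparison over time, 1 was called in controls at 27 weeks (background 20.7%) and 1 under HFCSD at 19 weeks (7.17%). Limma called 0 in the others, which were controls at 19 weeks (12%), HFCD at 19 weeks (6.92%), HFCD at 27 weeks (5.6%) and HFCSD at 27 weeks (10.3%), with 4286, 4862, 3859 and 4409 probes at an unadjusted p under 0.05. For the change of a diet effect over time, limma called 0 of 4 members at 19 and at 27 weeks against 10 weeks, first for HFCD and then for HFCSD. The background was 0% in each, with 1674, 521, 995 and 2664 probes at an unadjusted p under 0.05.

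Ordered by mean level, SREBF1 at 297 was highest in HFCSD whole blood at 27 weeks (12.60), then control at 19 weeks (12.08). Next came control at 10 weeks (11.37), HFCSD at 10 weeks (11.36), HFCD at 19 weeks (11.28), HFCD at 27 weeks (11.11), HFCD at 10 weeks (10.87) and HFCSD at 19 weeks (10.80). Control at 27 weeks (9.74) was the lowest whole blood group, and the 3 white blood cell groups followed. Neighbours differed by more than both their SDs at only 2 of 11 steps, below control at 19 weeks (by 0.72) and above control at 27 weeks (by 1.06). At 3590 the order ran from control at 19 weeks (11.86) to control at 27 weeks (7.75), with the white blood cell groups in 8th to 10th place, and no neighbours differed by more than both SDs.

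At INSIG1 1197 the order ran from HFCSD whole blood at 27 weeks (9.95) to HFCD white blood cells (5.86), and only the step from control whole blood at 27 weeks to control white blood cells, 2.46, exceeded both SDs. At INSIG1 1678 it ran from control white blood cells (8.47) to HFCSD whole blood at 19 weeks (5.31), and only the step between the white blood cell and whole blood groups, 0.74, did.

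The probes of a gene were compared over the 12 group means, which share the difference between sample types. INSIG1 1197 and 1678 had a correlation of -0.79, and -0.43 within whole blood groups over 33 arrays. SREBF1 297 and 3590 had 0.58, and 0.57 within whole blood groups. Across the genes, INSIG1 1197 and SREBF1 297 were closer than either was to another probe of its own gene, with 0.92 over the 12 means and 0.75 within whole blood groups. Within white blood cell groups, over 12 arrays, it was otherwise: SREBF1 297 and 3590 had 0.92, INSIG1 1197 and 1678 had 0.72, and INSIG1 1197 and SREBF1 297 had 0.39. The share of spots above background moved with these levels within whole blood groups, with correlations of -0.58 at 1197, 0.48 at 1678, -0.46 at 297 and 0.16 at 3590. Its part in the likeness of the probes was not tested.

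Among 1179 other named genes, those with the pattern most like INSIG1 1197 over the 12 group means were HYAL2, DCN, C5AR1, PTGER3 and ADRB1, all with a Pearson r of 0.99. With 136 genes above 0.9 this probe had many such partners, and HYAL2, DCN and C5AR1 were also among the 5 closest over the 45 arrays centred on sample type and week. For SREBF1 the probe taken by the rule, at 3590, which is about as bright as the probe at 297, was closest to PEX6 (0.85), MUC1 (0.83), DTNBP1 (0.83), CNN3 (0.82) and RPLP0 (0.81), none of which was among its 5 closest over the 45 arrays. Chosen after values were seen, the probe at 297 was closest to INHA (0.99), TNFSF12 (0.98), DES (0.98), APOC3 (0.98) and BMP15 (0.97), of which INHA, TNFSF12 and DES were also among the 5 closest over the 45 arrays. It had 87 genes above 0.9. The median share of G and C in the 5 closest probes was 55.0% at 1197, 55.0% at 3590 and 50% at 297, beside 41.7% over all genes compared.

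The rest of the pathway was described for HFCSD whole blood at 27 weeks from 5 lists of genes. Over the array 10.6% of probes were called there. In the list of sterol sensing and SREBP processing, 2 of 10 tested probes were called, both higher: SREBF1 297 and SREBF2, the gene of the cholesterol-directed sister factor, by 2.35 (SE 0.50), adjusted p 0.0238. The list's median was -0.03, beside -0.21 over all probes tested. In the list of sterol synthesis 6 of 8 tested probes were called, all lower, and the median was -1.27. Among them were SQLE (-2.25), MSMO1 (-2.15 and -1.75), CYP51A1 (-1.36) and MVK (-0.97), enzymes of the route through mevalonate to cholesterol.

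Limma called 0 of 5 tested probes of the lipogenic targets of SREBP-1, with 10.6% called and 5524 at an unadjusted p under 0.05 over the array. Their median was 0.09, with FASN at 1.09 (adjusted p 0.07), ACACA at 0.85 and SCD at -0.19, enzymes of fatty acid synthesis and desaturation. In the list of lipoprotein uptake and lysosomal cholesterol 2 of 9 were called, both lower, SORT1 (-1.13) and 1 probe of CD36 (-1.57), with a median of -0.91. CD36 is also a platelet gene, and the 6 platelet markers had a median of -1.15, of which limma called 0. Their summed level read 15.06, 14.35 and 12.42 in HFCSD and 14.92, 14.96, 15.26 and 15.07 in controls, so that HFCSD replicate 3 stood apart. Whether platelet content takes part was not tested. In the list of LXR and its targets 2 of 4 were called, both higher, the lipid exporter ABCA1 (2.29) and the phospholipid carrier PLTP (2.19), with a median of 1.39. SREBF1 was thus called higher beside called increases of 2 LXR targets and decreases of sterol synthesis enzymes in the same 7 arrays. Most of these 12 list calls, that of SREBF1 included, rested on single arrays and on the fit. Without control replicate 1, 2 or 3 or HFCSD replicate 1 or 2, 2 list probes were called, as with no filter on dim probes. A t-test, here with the same adjustment, called 1, and with the share of spots above background as a covariate limma called 0 (2839 over the array at an unadjusted p under 0.05).

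ABCA1 was called higher in each of the 8 diet comparisons, by 1.98 to 2.53, and SQLE lower in HFCSD whole blood at 27 weeks and in both white blood cell comparisons (-1.48 and -1.62), in which latter all SREBF1 and INSIG1 differences were uncalled. The size of the ABCA1 difference stayed between 1.88 and 2.86 under every alternative, but its call did not always hold. Under HFCSD at 19 weeks it was lost in 5 of 11 alternatives and in 6 of 11 fits with an array left out, and under HFCD at 19 weeks in 4 and 2 of 11. Under HFCSD at 10 weeks it was lost in 5 of 12 fits with an array left out. The adjusted t-test lost it in 6 of the 8 comparisons, whereas the study used that test without adjustment. SQLE under HFCD in white blood cells kept its call in 4 of 10 alternatives and in 2 of 12 fits with an array left out, and under HFCSD in 8 of 10 and 7 of 12. Over the alternatives the SQLE difference there was as small as -0.82 under HFCD and -0.93 under HFCSD. In HFCSD whole blood at 27 weeks it was as small as -1.07. In the other 5 whole blood comparisons SQLE was also lower with diet, at -1.44 to -1.72, uncalled. These comparisons share controls in pairs. Apart from INSIG1 and SREBF1, ABCA1 was the only list probe called in the other 5 whole blood diet comparisons, of 30 to 36 tested. Limma called 0 list probes in the comparisons of HFCSD with HFCD. Between sample types 15 of 37, 14 of 36 and 22 of 39 list probes other than these genes' were called in control, HFCD and HFCSD, beside 45.3%, 47.5% and 58.8% over the array. Among them SREBF2 was lower in white blood cells under HFCD (-1.73) and HFCSD (-3.22).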

How the data were processed

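The authors deposited 45 one-colour Agilent arrays, 1 per sample, with background-subtracted intensity per spot from Feature Extraction (10.5.1.1 in the files), and a table of quantile normalized intensity from GeneSpring. The intensity of 43803 non-control spots was averaged to 43603 probes, log2 transformed, and quantile normalized across all arrays. Groups were taken from the labels. Differences were tested with limma 3.58.1 in R 4.3.3, two-sided, with Benjamini-Hochberg adjustment over all probes tested, on the diet groups of a sample type and week, the 6 groups of 27 weeks, or the 9 whole blood groups. A probe was tested where any group compared had it well above background on all its arrays. The p-values measure spread among these arrays. The study bled its pigs repeatedly, and the labels do not pair the arrays. Fits across weeks or sample types thus treated arrays as independent, and their p-values take no account of repeated sampling. The same steps were tested on simulated data, and the outcome is not given here. Summaries used Python 3.11.15, pandas 2.3.3 and numpy 2.4.6.

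Gene names came from the array files, with RefSeq records (2032 probes), symbols (693) and synonyms (132) matched to a RefSeq table for the likeness of genes. For each gene the brightest probe seen on every array of a group was used, and the 5 closest genes are named. Of the lists, most probes called in HFCSD whole blood at 27 weeks and some of the larger differences there are named. ABCA1 and SQLE are named as genes the study names. The 5 pathway lists and the marker lists (leukocyte, neutrophil, NK cell, T cell, monocyte, platelet, erythroid, hepatocyte, adipocyte) hold the genes with a probe on the array. The members and lists were chosen with earlier results of these data known. Some genes of the lists are not reported here. The alternatives were 75th percentile scaling, normexp background correction with an offset of 50, the deposited table, no filter on dim probes, a weaker filter, the share of spots above background as a covariate, blocks for replicate number, slide and scan day, the methods' t-test (used there without adjustment, here with it), only the groups compared, and each array left out in turn.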

Additional observations from a re-analysis of the deposited data

Results flagged for a closer look

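In groups of 4 arrays, an array was singled out where its gap to the nearest of the others took up more of the group's range than the critical value of Dixon's test for 4 values allows. Chance alone singles out about 1 in 20 groups, and 10 of the 45 combinations of probe and group checked had such an array. The 3 groups of 3 arrays were not checked.

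At the SREBF1 probe at 297, replicate 2 of control whole blood at 10 weeks was highest at 12.22, with the next at 11.11. Replicate 4 of control whole blood at 27 weeks was highest at 10.76, with the next at 9.43. Replicate 1 of HFCD whole blood at 19 weeks was lowest at 8.15, with the next at 12.10, and replicate 2 of HFCD white blood cells was lowest at 7.20, with the next at 9.58.

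At the SREBF1 probe at 3590, the same replicate 1 of HFCD whole blood at 19 weeks was lowest at 4.48, with the next at 12.08. Replicate 1 of control whole blood at 19 weeks was lowest at 8.49, with the next at 12.62, and replicate 1 of HFCSD white blood cells at 8.93, with the next at 10.55.

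At the INSIG1 probe at 1197, replicate 1 of control whole blood at 19 weeks was highest at 11.41, with the next at 8.97. At the INSIG1 probe at 1678, replicate 4 of HFCD white blood cells was lowest at 7.58, with the next at 8.40. At the INSIG1 probe at 510, replicate 3 of control whole blood at 10 weeks was highest at 2.21, with the next at 1.75, in a group where no array saw the probe. The values stayed in all tests.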

How the results depend on the processing

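The 115 tested differences of the 5 probes were recomputed under the alternatives and with each array left out. No value that was called, in the reported fit or under an alternative, changed sign. Of 3570 recomputed values 3388 kept their sign and their side of the threshold, 42 lost a call, 12 gained one and 128 changed sign, of which 121 belonged to differences smaller than their own SE. The causes of the changes below were not tested.

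For SREBF1 297 in HFCSD whole blood at 27 weeks (2.86), the call was lost with no filter on dim probes (2.86, adjusted p 0.0523), the share covariate (1.65, 0.191) and the adjusted t-test (2.86, 0.0604), with adjusted p from 0.00551 to 0.191 over its 10 alternatives, and arrays left out gave 2.73 to 3.20. SREBF1 3590 there (4.00) was called with normexp (3.24, adjusted p 0.0423) and with the replicate block (2.80, adjusted p 0.0283), with values from 2.80 to 6.59 and adjusted p from 0.0283 to 0.176 over its alternatives. The replicate block changed no other call of the 5 probes. Same-numbered arrays of different diets had mean correlations of their deviations of 0.21, -0.13 and -0.01 in whole blood at 10, 19 and 27 weeks. In white blood cells the mean was -0.04. Whether the numbers pair samples of the same pig across weeks or sample types was not examined. Probes called over the array in that comparison numbered 1824, and 453 with no filter, 142 with the adjusted t-test, 0 with the share covariate and 95 to 2833 with arrays left out. The share called higher was 63.7%, and ran from 55.6% with no filter to 79.2% with the replicate block. Without HFCSD replicate 1, 2 or 3 the calls were near balance, with 51, 55 and 1131 higher and 53, 63 and 1120 lower.

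Between sample types, INSIG1 510 lost its call with normexp in controls (0.18) and under HFCSD (0.20), INSIG1 1678 under HFCSD with the share covariate (1.30), SREBF1 297 under HFCD with the adjusted t-test and with only the groups compared (-1.98 in both; arrays left out -2.66 to -1.33), and SREBF1 3590 in controls with no filter, the adjusted t-test and only the groups compared (2.67 in each; arrays left out 1.47 to 3.41). SREBF1 3590 under HFCSD was called with the share covariate (-3.49) and with only the groups compared (-1.47). Over time, SREBF1 3590 in controls at 27 weeks lost its call with no filter, the weaker filter and the adjusted t-test (-4.06 in each) and the slide block (-4.11), with -4.80 to -2.86 when arrays were left out. INSIG1 1678 under HFCSD at 19 weeks lost its call with normexp (-0.76), no filter, the adjusted t-test and only the groups compared (-1.62 in each) and the slide block (-1.59), with -2.04 to -0.82 when arrays were left out. Calls were gained with only the groups compared at SREBF1 297 in controls (-1.63) and HFCSD (1.23) at 27 weeks, for its HFCSD effect between types (-2.88) and between 27 and 10 weeks (2.86). Arrays left out gave -1.97 to -1.34 and -3.26 to -2.56 for the control and the between-type difference, and -1.43 to -0.90 for INSIG1 1678 under HFCD at 19 weeks.

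Signs changed as follows among uncalled differences. With the share covariate, in whole blood diet comparisons, INSIG1 1678 (-0.32), SREBF1 297 (0.26) and SREBF1 3590 (0.01) under HFCD at 10 weeks, SREBF1 297 under HFCSD at 10 weeks (0.30), and INSIG1 1197 under HFCD at 19 weeks (-0.58) and HFCSD at 27 weeks (-0.0039). With it, in HFCSD against HFCD, SREBF1 3590 at 19 weeks (-0.10), INSIG1 1197 (-0.78) and 1678 (0.49) at 27 weeks, and INSIG1 510 (5.7e-05) and SREBF1 3590 (0.14) in white blood cells. With it, over time, INSIG1 1197 (0.35) and SREBF1 3590 (-0.25) in controls at 19 weeks, INSIG1 1197 (-0.26) and SREBF1 297 (-0.47) under HFCD at 19 weeks, and INSIG1 1197 (-0.48) and SREBF1 3590 (0.25) under HFCSD at 27 weeks. With it, among differences of effects, INSIG1 1678 between types (-0.34), INSIG1 1197 (-0.61) and 1678 (0.33) for HFCD at 19 weeks, and INSIG1 1197 (-0.02) and 1678 (0.20) for HFCSD at 27 weeks. With 75th percentile scaling, SREBF1 3590 under HFCSD at 10 weeks (-0.03), in HFCSD against HFCD at 19 weeks (-0.04) and under HFCSD from 10 to 27 weeks (0.09), and INSIG1 510 for the HFCSD effect between types (-0.27). With normexp, SREBF1 297 under HFCSD at 10 weeks (0.04), INSIG1 510 and SREBF1 297 under HFCD in white blood cells (0.04 each), SREBF1 3590 in HFCSD against HFCD at 19 weeks (-0.31) and SREBF1 297 in that contrast in white blood cells (-0.07). With the deposited table, SREBF1 3590 in HFCSD against HFCD at 19 weeks (-0.01). With the slide block, SREBF1 3590 under HFCSD at 10 weeks (-0.01) and in controls at 19 weeks (-0.18) and SREBF1 297 in HFCSD against HFCD in white blood cells (-0.02). With scan day as a block, possible only in whole blood at 19 weeks, INSIG1 1197 under HFCD (-1.81) and SREBF1 3590 under HFCD (2.17) and HFCSD (2.18).

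With single arrays left out, signs changed within these ranges. In HFCD whole blood at 10 weeks, INSIG1 1678 -0.19 to 0.24, SREBF1 297 -1.01 to 0.01 and SREBF1 3590 -0.64 to 0.11. In HFCSD whole blood at 10 weeks, INSIG1 1197 -0.20 to 0.37, INSIG1 1678 -0.41 to 0.02, SREBF1 297 -0.12 to 0.28 and SREBF1 3590 -0.34 to 0.25. At 19 weeks, INSIG1 1197 -0.31 to 1.06, SREBF1 297 -1.23 to 0.24 and SREBF1 3590 -2.32 to 0.86 under HFCD, and SREBF1 3590 -2.31 to 0.05 under HFCSD. In white blood cells under HFCD, INSIG1 510 -0.24 to 0.06, 1197 -0.26 to 0.14, 1678 -0.39 to 0.07, SREBF1 297 -0.44 to 0.59 and 3590 -0.29 to 0.38, and under HFCSD, INSIG1 1197 -0.28 to 0.15, SREBF1 297 -0.40 to 0.30 and 3590 -0.34 to 0.30. In HFCSD against HFCD, SREBF1 297 -0.01 to 1.00 and 3590 -0.08 to 0.58 at 10 weeks, 3590 -2.05 to 1.25 at 19 weeks, INSIG1 1197 -0.0023 to 1.42 and 1678 -0.39 to 0.13 at 27 weeks, and in white blood cells INSIG1 510 -0.24 to 0.05, 1197 -0.20 to 0.19, SREBF1 297 -0.61 to 0.35 and 3590 -0.53 to 0.35. Between types under HFCD, SREBF1 3590 -0.14 to 1.83. Over time, INSIG1 1197 -0.89 to 0.08 and SREBF1 3590 -0.44 to 1.17 in controls at 19 weeks, SREBF1 297 -0.09 to 1.45 and 3590 -1.70 to 1.17 under HFCD at 19 weeks, INSIG1 1197 -0.13 to 1.28 and SREBF1 297 -0.28 to 0.93 under HFCD at 27 weeks, SREBF1 3590 -1.85 to 0.07 under HFCSD at 19 weeks, and INSIG1 1197 -0.01 to 0.44 and SREBF1 3590 -0.40 to 0.13 under HFCSD at 27 weeks. Among differences of effects, INSIG1 510 -0.21 to 0.66 and 1678 -0.13 to 0.42 for HFCSD between types, SREBF1 297 -0.81 to 0.73 and 3590 -2.06 to 1.12 for HFCD at 19 weeks, and SREBF1 3590 -2.35 to 0.02 for HFCSD at 19 weeks.

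Groups of 3 or 4 arrays, and 1 spot per probe, limit what can be seen. INSIG1 510 was well above background on only 1 whole blood array. The scan day block could be fitted at 19 weeks only, where it rests on 1 control array, and elsewhere day goes with the groups or is shared by them. The t-test was not run for the differences of effects, which it does not define. Of the 5 genes most like each probe, 3 were shared with the ranking over 45 arrays at INSIG1 1197 and SREBF1 297, 1 at INSIG1 510 and 0 at INSIG1 1678 and SREBF1 3590.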
